A study of Mus musculus with 2 samples.

Results

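In the adrenal gland of the mouse, 1195 transcript models in 749 annotated genes lacked the 5′ part of their chain of introns in both long-read libraries. A model was counted when it lay in an annotated gene, carried the authors' class incomplete splice match with the subtype Suffix in both libraries, and had at least 3 reads in each. The libraries were joined on chromosome, strand and the coordinates of every intron, while their outer ends could differ. The 1195 models were 9.94% of the 12027 spliced models of any class that met the same match and read minimum. Members were chosen by their class and their read numbers, so their levels are given below as a description without a test. Of the matched models, 366 had exactly 3 reads in the library with fewer reads, with medians of 6 reads in replicate 1 and 3 in replicate 2. Another 978 models just missed the minimum with 2 reads in the lower library, with medians of 4 and 2 reads.

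The study sequenced total RNA in 2 libraries, called replicate 1 and replicate 2, from the adrenal gland of females of the strain B6CASTF1/J at 2 months of age. Both belong to 1 group and no second condition was analysed here. The biosample labels number the animals 3 and 4, while the library labels give the number 3 in each case and the donor identifier does not differ. A starting quantity, 1 µg, is stated for replicate 1 alone. Every p-value below compares the reads of 1 library with those of the other and covers counting error only, with no estimate of the spread between libraries or animals. A difference between the libraries may be technical. Replicate 1 held 1209457 reads in annotated nuclear genes and replicate 2 held 502655. Levels are read counts scaled to these totals (CPM, per 1000000 reads), so that 3 reads are 2.48 CPM in replicate 1 and 5.97 CPM in replicate 2. The 5 markers of the adrenal cortex had a sum of 56269 CPM in replicate 1 against 74936 in replicate 2, and 5 markers of the medulla one of 11580 and 6677 CPM. None of 3 kidney markers (sums of 4.13 and 3.98 CPM) and 3 lymphocyte markers (3.31 and 1.99 CPM) had 3 reads in each library.

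A long read reports the exons of a cDNA in their order, so that a read can be compared with a whole annotated transcript. Reverse transcription begins at the poly(A) tail and runs toward the 5′ end of the RNA. A read that keeps the 3′ introns and lacks the first ones can come from a cDNA or RNA that is not whole, or from an RNA that begins further downstream. These sources cannot be told apart in the deposited models. An intron chain is read directly, whereas the first base of a deposited model was mostly placed on a boundary of the annotation, as described below.

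The sequences below show where the coding RNA is left off in the 5 most abundant members that begin in coding sequence with starts within 10 bases of each other in both libraries. Each line reads 5′ to 3′ along the spliced annotated transcript of GENCODE M21 on build mm10. The 30 bases in lower case are absent from the member and the 30 bases in capitals are its first bases. A more abundant member was left out because such bases touched an annotated untranslated region. In Akr1c18 the lost bases end exon 3 at chr13:4144290-4144319 and the kept bases open exon 4 of 8 at chr13:4142220-4142249, on the minus strand. In Hao2 the lost bases end exon 4 at chr3:98883574-98883603 and the kept bases open exon 5 of 9 at chr3:98882058-98882087, on the minus strand. In Nr5a1 the lost bases end exon 3 at chr2:38710410-38710439 and the kept bases open exon 4 of 7 at chr2:38708510-38708539, on the minus strand. In Cyp11a1 the lost bases end exon 5 at chr9:58020837-58020866 and the kept bases open exon 6 of 9 at chr9:58025078-58025107, on the plus strand. In Cyp21a1 the lost bases end exon 6 at chr17:34802985-34803014 and the kept bases open exon 7 of 10 at chr17:34802842-34802871, on the minus strand.
Akr1c18: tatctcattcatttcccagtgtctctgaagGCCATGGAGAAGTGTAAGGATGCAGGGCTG
Hao2: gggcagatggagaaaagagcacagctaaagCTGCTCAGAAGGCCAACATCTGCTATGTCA
Nr5a1: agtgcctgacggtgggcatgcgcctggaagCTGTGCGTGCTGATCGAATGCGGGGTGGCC
Cyp11a1: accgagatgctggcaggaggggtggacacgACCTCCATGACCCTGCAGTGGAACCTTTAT
Cyp21a1: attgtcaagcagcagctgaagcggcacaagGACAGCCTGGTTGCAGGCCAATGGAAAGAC
All 5 positions were starts of an internal annotated exon, so the change of case marks an annotated exon junction. Cyp21a1 has a closely related pseudogene, and the sources used here do not say how reads were divided between such copies.

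The members had a median of 12 reads in replicate 1 and 5 in replicate 2, and up to 777 and 342 reads. At least 10 reads supported 701 members in replicate 1 and 253 in replicate 2. Together they held 34990 reads in replicate 1, which was 2.89% of the reads of annotated nuclear genes, and 12173 reads in replicate 2, which was 2.42%. The 20 members with the most reads held 23.0% and 24.3% of these reads. Replicate 1 was sequenced more deeply and gave more reads for 1004 members, but a higher CPM for 538 of 1195. The plot of CPM by library shows this spread on both sides of equality.

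**Figure D1:**
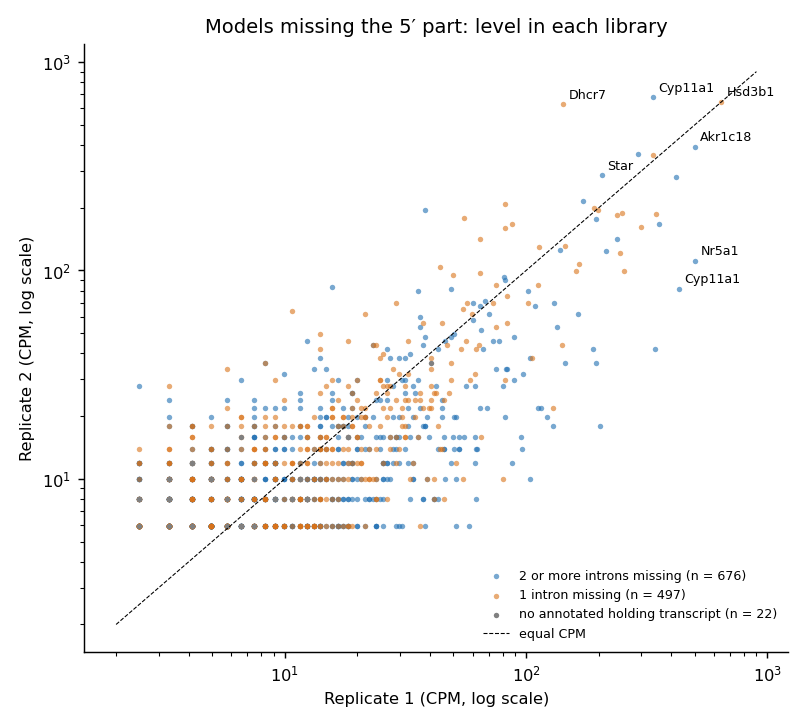
CPM of each of the 1195 members in replicate 1 (horizontal) and replicate 2 (vertical), both on log scales, with members missing 1 intron in orange, more introns in blue and those without an annotated holding transcript in grey. Hsd3b1 sits on the line of equal CPM, the Dhcr7 member lies above it, and Nr5a1 and a Cyp11a1 member lie below it.

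Shared members were a small part of what replicate 1 alone would give. Of its 6133 suffix models with at least 3 reads, 2774 had no read in replicate 2 and 1195 (19.5%) were members. Of the 1460 such models in replicate 2, 73 had no read in replicate 1 and 1195 (81.8%) were members. All suffix models together, shared or not, took 87690 reads or 7.25% of the reads of annotated nuclear genes in replicate 1 (exact Clopper-Pearson 95% interval 7.20% to 7.30%). They took 27170 reads or 5.41% in replicate 2 (5.34% to 5.47%). These intervals cover counting error only. Models that lacked the 3′ part instead were fewer, with 121 in 102 genes under the same rule, and 31 genes held both kinds.

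Enzymes of steroid synthesis led the list. The member with the highest mean level lay in Hsd3b1, whose enzyme converts pregnenolone to progesterone, at chr3:98852194-98858152 on the minus strand. It had 777 reads (642 CPM) in replicate 1 and 324 reads (645 CPM) in replicate 2, which was 8.86% and 8.04% of the reads of the gene. It missed 1 intron of a 4-exon transcript. Cyp11a1 encodes the side-chain cleavage enzyme that begins steroid synthesis in mitochondria, and held 7 members. Its member that kept 5 of 8 introns had 405 reads (335 CPM) in replicate 1 and 342 reads (680 CPM) in replicate 2. The Cyp11a1 member that kept 3 introns, shown above, went the other way with 519 reads (429 CPM) and 41 reads (81.6 CPM). The order of these members within 1 gene thus differed between the libraries. Both were small beside the gene, at 1.66% and 3.43% of its reads for the first and 2.12% and 0.411% for the second. Star, which carries cholesterol into mitochondria, held 5 members, of which the most abundant kept 3 of 6 introns with 249 reads (206 CPM) and 144 reads (286 CPM). In Cyp21a1, the 21-hydroxylase, the member shown above had 208 and 108 reads and kept 3 of 9 introns. The 7 members of Cyp11b1, the 11-beta-hydroxylase, kept 1 to 7 introns and took 4.51% of the gene's reads in replicate 1 and 1.50% in replicate 2.

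Nr5a1 encodes the transcription factor SF-1, which drives the genes of steroid-producing cells. Its most abundant member began at exon 4 of 7 and kept at most 82.4% of the coding bases. It had 606 reads (501 CPM) in replicate 1 and 56 reads (111 CPM) in replicate 2. This was 45.2% of the gene's reads in replicate 1 and 9.17% in replicate 2, and the whole annotated transcript had 338 and 308 reads. In replicate 1 the shortened model outnumbered the whole one, and in replicate 2 it did not. Akr1c18 encodes a progesterone-inactivating reductase of the X-zone, the inner cortical layer of young female mice. Its leading member had 604 reads (499 CPM) and 197 reads (392 CPM), or 8.20% and 10.9% of the gene's reads. Other aldo-keto reductase genes are similar in sequence, and the sources used here do not say how such reads were assigned.

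Of the 1195 members, 1173 ended the chain of at least 1 annotated transcript and 22 ended only chains of new models. Measured against the annotated transcript that lacks the fewest introns, 497 members (42.4%) missed 1 intron, 136 missed 2, 84 missed 3, 292 missed 4 to 9 and 164 (14.0%) missed 10 or more. The median was 2 missing introns, with quartiles of 1 and 6, and the members kept a median of 66.7% of the introns. The missing part covered a median of 435 spliced bases, or 19.3% of the annotated transcript. At the other extreme, 101 members kept 1 intron. The holding transcript was protein-coding for 1072 members, of retained-intron type for 46 and a nonsense-mediated decay target for 20. GC content of the missing part had a median of 59.4% and that of the kept part 52.8%, and the missing part was richer in GC in 1006 of 1172 members with a sequence. Whether this step exceeds that of other annotated transcripts was not tested.

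**Figure D2:**
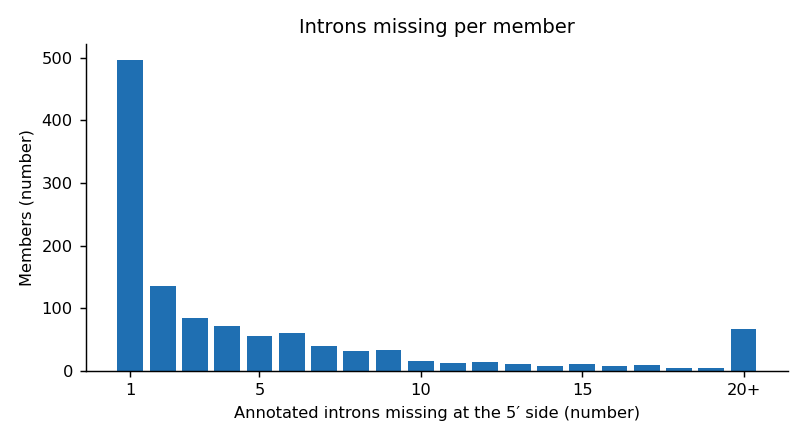
Number of members (vertical) by the number of annotated introns missing at the 5′ side (horizontal, 20 or more pooled), for the 1173 members with an annotated holding transcript. The bar for 1 missing intron, at 497 members, is followed by 136 and 84 for 2 and 3.

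Model starts followed the annotation closely. In replicate 1, 648 members (54.2%) began at the start of an internal annotated exon and 392 (32.8%) at the start of another annotated transcript. A further 81 began at the last base of an annotated exon. Only 47 began inside an exon away from its edges and 27 outside every annotated exon of the gene. The counts in replicate 2 were 624, 392, 88, 70 and 21. The same base was given in both libraries for 896 members, and starts lay within 50 bases for 993 (83.1%). Where both starts lay on an annotated boundary the base was the same for 878 of 1063 members, and where neither did it was the same for 15 of 33. The deposited starts therefore carry the annotation's boundaries and cannot be read as the ends of reads. At the 3′ side, 1049 of 1173 members (89.4%) ended at an annotated transcript end in replicate 1. A polyadenylation signal, AATAAA or ATTAAA, stood in the last 50 bases of 551 of the 616 members that end with their holding transcript (89.4%), beside 6978 of 8948 annotated spliced transcripts with 3 or more reads in each library (78.0%). The first share counts a transcript once for every member it holds and the second counts each transcript once, so they are not like for like.

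**Figure D3:**
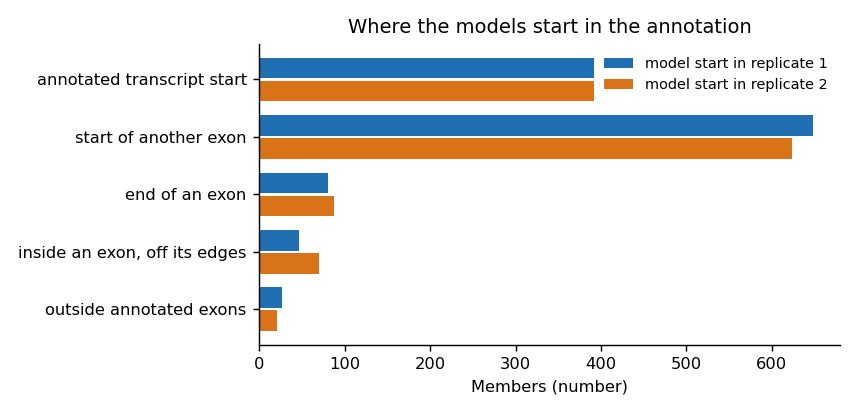
Number of members (horizontal) by where the model starts in the annotation (vertical), for the start deposited in replicate 1 (blue) and in replicate 2 (orange). Starts of internal exons (648 and 624) and of annotated transcripts (392 and 392) make up most members in both libraries.

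The deposited starts of members that missed 1 intron were often at annotated transcript starts. Of these 497, 53.3% were placed at an annotated transcript start, against 20.0% of the 220 that missed 2 or 3 introns, 16.4% of the 292 that missed 4 to 9 and 12.8% of the 164 that missed 10 or more. A start codon is more likely to be lost the more introns are missing, by construction. It lay in a missing exon for 42.8% of the coding members that missed 1 intron, for 95.9% with 2 or 3, for 98.9% with 4 to 9 and for 100% with 10 or more. Over all 1079 coding members, it lay in a missing exon for 806 (74.7%), in the first exon of the member for 234 (21.7%) and further downstream for 39 (3.61%). The 806 kept at most a median of 70.0% of the coding bases, and 218 of them kept at most 50%.

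Some members were the main product that their gene gave in both libraries. A member held over 50% of the gene's reads in both libraries in 48 cases, and 39 of the 47 with an annotated holding transcript had fewer than 3 reads for that whole transcript in each library. Of these 47, 30 missed 1 intron. The start codon lay in a missing exon for 18 of the 44 coding ones (40.9%). Only 11 of the 48 lay in genes that reached 50 reads in both libraries, and the genes named in this paragraph all did. The remaining shares rested on fewer than 50 reads of the gene in 1 library or both. Atp5f1, a subunit of the peripheral stalk of ATP synthase, had a member at chr3:105942698-105959246 with 404 reads (93.7% of the gene) and 181 reads (96.3%), and no read for the whole transcript in either library. Ndufa13, a subunit of respiratory complex I, had a member at chr8:69894180-69901732 with 418 reads (98.4%) and 94 reads (96.9%), also with no read for the whole transcript. Psmc2, an ATPase subunit of the proteasome, had a member at chr5:21786650-21803787 with 241 reads (97.6%) and 98 reads (95.1%), beside 1 and 0 reads for the whole transcript. In all 3 genes the libraries gave nearly the same share, and the start codon lay in the member's first exon, so the full coding sequence could be kept. Sdsl, a relative of serine dehydratase, had 201 reads (86.6%) and 54 reads (81.8%). Clcn4, an endosomal chloride-proton exchanger, had 195 reads (62.9%) and 50 reads (67.6%). Tspan12, a tetraspanin of the cell membrane, had 136 reads (72.0%) and 43 reads (79.6%). In Sdsl, Clcn4 and Tspan12 the first intron was missing and the start codon lay downstream of the member's first exon. Ctsa, a lysosomal carboxypeptidase, had 67 reads (72.0%) and 90 reads (87.4%), and Serping1, the inhibitor of the first complement component, had 53 reads (69.7%) and 52 reads (75.4%).

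Hao2, a peroxisomal oxidase of hydroxy acids, differed from those genes. Its leading member began at exon 5 of 9, with the start codon in a missing exon, and had 352 reads (55.1% of the gene) and 182 reads (55.5%). The whole transcript had 130 and 72 reads. All suffix models of Hao2 together took 70.4% of its reads in replicate 1 and 68.9% in replicate 2, and this difference was not called (adjusted p = 1.0, two-sided Fisher's exact test with Benjamini-Hochberg adjustment). Dgat2, the enzyme of the last step of triglyceride synthesis, had a member with 363 reads (29.2%) and 81 reads (10.6%). Hnrnpf, an RNA-binding protein, had 303 reads (34.7%) and 95 reads (35.6%), and Prkar1a, the regulatory subunit of protein kinase A, had 287 reads (19.5%) and 93 reads (18.2%). Both began at an annotated transcript start, upstream of the start codon.

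Dhcr7 encodes the last enzyme of cholesterol synthesis and had 6 members. The leading one missed the first intron, lay at chr7:143830234-143848409 on the plus strand, began at an annotated transcript start and kept the whole coding sequence. It had 172 reads (142 CPM) in replicate 1 and 315 reads (627 CPM) in replicate 2, although replicate 2 was the shallower library. This was 38.8% and 72.9% of the gene's reads. The annotated transcript that this member was measured against had 0 and 2 reads. The Dhcr7 start lay 20 bases from the start of a RefSeq transcript. Deposited starts mostly lay on annotated boundaries, so closeness to a RefSeq start does not locate the ends of reads. Over all members, 86 had a deposited start within 50 bases of a RefSeq transcript start in replicate 1. Of these, 61 had one there in replicate 2 as well. The 81 distinct windows of the 86 members ran from 250 bases before to 50 after the start in RefSeq's GRCm38.p6 annotation. They had a median GC content of 59.7% and 19 CpG dinucleotides, beside 52.7% and 7 over all 32851 windows. TATAAA on either strand stood in 11.1% of the 81 windows and in 13.6% of all, and CCAAT on either strand in 40.7% and 37.4%. These matches describe letters and not binding. The full set of windows was taken without regard to reads in this tissue, and other starts of the same genes were not compared. Whether the GC and CpG values are particular to member starts was not tested.

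In several genes many members differed by the number of missing introns, as the steps of a ladder. Measured along 1 annotated transcript per gene, members stood at 10 of 12 possible steps in Eef2 and 19 of 25 in Acly, but at 21 of 41 in Fasn, 19 of 39 in C3, 10 of 18 in Pcx and 18 of 65 in Col5a3. Acly and Fasn had 21 members each, C3 had 19, Col5a3 had 18, Pcx had 11 and Eef2 had 10. These 6 genes encode the enzyme that makes cytosolic acetyl-CoA, fatty acid synthase, the central complement component, a chain of type V collagen, pyruvate carboxylase and a translation elongation factor. The 6 lines below show the junction of the most abundant member of each that begins at an internal exon with starts within 10 bases of each other, written as above. In Eef2 the lost bases end exon 6 at chr10:81179422-81179451 and the kept bases open exon 7 of 14 at chr10:81179544-81179573, on the plus strand. In Fasn the lost bases end exon 22 at chr11:120814477-120814506 and the kept bases open exon 23 of 43 at chr11:120814011-120814040, on the minus strand. In C3 the lost bases end exon 8 at chr17:57224644-57224673 and the kept bases open exon 9 of 41 at chr17:57224384-57224413, on the minus strand. In Acly the lost bases end exon 11 at chr11:100504855-100504884 and the kept bases open exon 12 of 27 at chr11:100504264-100504293, on the minus strand. In Pcx the lost bases end exon 9 at chr19:4607665-4607694 and the kept bases open exon 10 of 20 at chr19:4609864-4609893, on the plus strand. In Col5a3 the lost bases end exon 47 at chr9:20779016-20779045 and the kept bases open exon 48 of 67 at chr9:20778825-20778854, on the minus strand.
Eef2: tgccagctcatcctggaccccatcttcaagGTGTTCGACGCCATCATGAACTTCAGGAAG
Fasn: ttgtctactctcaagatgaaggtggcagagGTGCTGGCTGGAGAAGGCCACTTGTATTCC
C3: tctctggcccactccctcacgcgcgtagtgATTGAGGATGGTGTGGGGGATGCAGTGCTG
Acly: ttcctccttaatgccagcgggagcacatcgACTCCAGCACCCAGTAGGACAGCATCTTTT
Pcx: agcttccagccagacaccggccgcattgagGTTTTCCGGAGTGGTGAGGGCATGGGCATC
Col5a3: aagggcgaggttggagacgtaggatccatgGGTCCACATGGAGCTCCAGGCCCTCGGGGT
That the junctions lie in coding sequence in all 6 genes follows from how the members were chosen. The Eef2, Fasn and C3 lines show the step that led in replicate 2 and stood second in replicate 1. The Acly line, at 11 missing introns with 67 and 8 reads, shows a step that led in neither library.

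Suffix reads were found at most steps of these ladders. Eef2 had suffix reads at all 12 possible steps in both libraries, and Col5a3 at 58 of 65 steps in replicate 1 and 53 in replicate 2. The median suffix read of Col5a3 missed 43.5 introns in replicate 1 and 41 in replicate 2, of 66. Fasn had its highest steps at 22 and 33 missing introns in both libraries. The step with 22 missing introns held 59 reads (14.2% of the gene) in replicate 1 and 41 reads (8.60%) in replicate 2, and the step with 33 held 61 reads (14.7%) and 25 reads (5.24%), close to the 22 reads in replicate 2 of the step with 21. The whole chain of 42 introns of Fasn had 8 reads in replicate 1 and 179 in replicate 2. Members took 78.6% of the Fasn reads in replicate 1 and 48.2% in replicate 2. In Eef2 the steps with 6 and 9 missing introns led in both libraries, with 198 and 235 reads in the first library against 31 and 18 in the other, where the step with 8 had 17, beside 958 and 620 reads of the whole chain. In C3 the step with 8 missing introns had 74 and 14 reads, and the one with 9 had 75 and 4. Pcx peaked at 9 missing introns with 55 reads in replicate 1 and at 12 with 12 reads in replicate 2. The leading steps of Pcx, C3 and Acly in replicate 2 rested on 12, 14 and 20 reads, so that the order of their steps there is uncertain by counting alone.

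**Figure D4:**
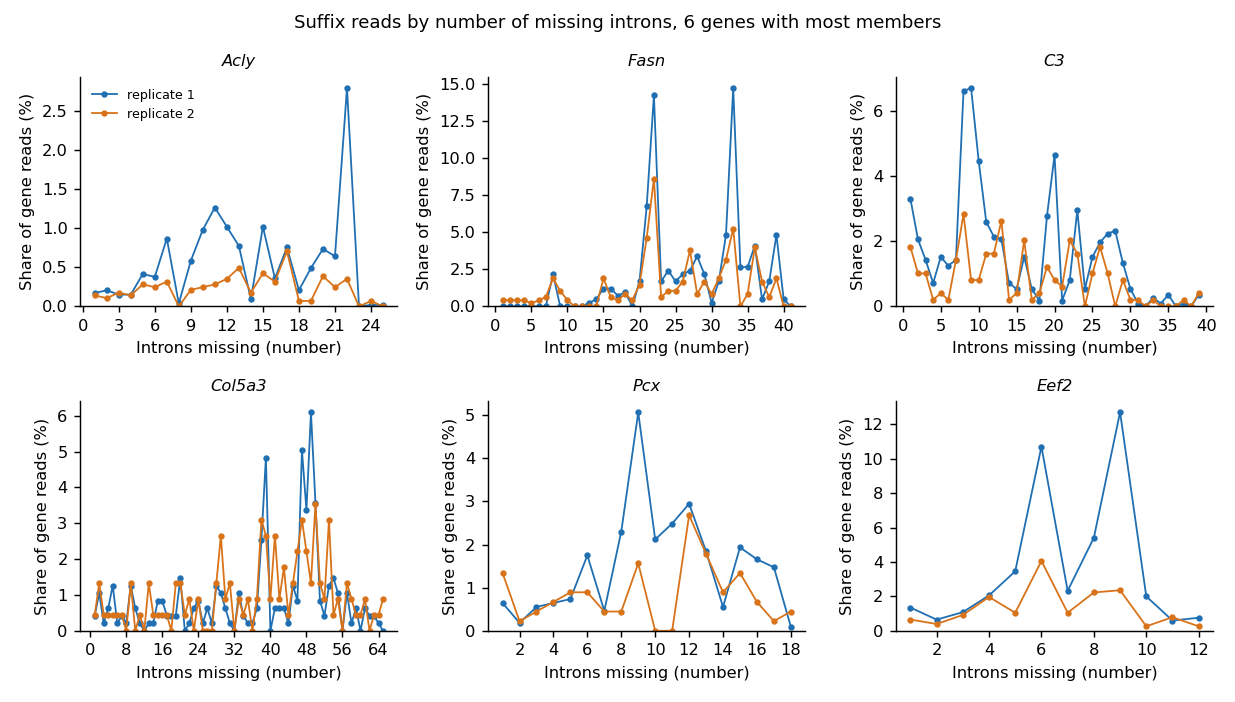
Share of the gene's reads in percent (vertical) held by suffix models that miss a given number of introns (horizontal) in Acly, Fasn, C3, Col5a3, Pcx and Eef2, with replicate 1 in blue and replicate 2 in orange. The Fasn panel has its highest points at 22 and 33 missing introns in both libraries, and the Eef2 panel at 6 and 9.

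The members with the most missing introns came from Col5a3 and Tln1, the cytoskeletal adaptor of integrins. In Col5a3, 9 of these members missed 45 to 57 of 66 introns, with 4 to 29 reads in replicate 1 and 3 to 8 in replicate 2. The Tln1 member that missed 52 of 56 introns had 4 and 6 reads. A further Tln1 member, beginning at exon 37 of 57, had 21 reads and 9 reads, while the whole transcript had 1 and 2 reads.

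Suffix shares are given by the size of the gene. In genes whose longest annotated transcript is under 1 kb it was 2.61% in replicate 1 and 1.93% in replicate 2, and over 4 kb it was 11.1% and 8.07%. Genes with 1 or 2 introns gave 0.841% and 0.716%, and genes with 21 or more gave 22.1% and 16.4%. A suffix model keeps at least 1 intron and misses at least 1, so more introns allow more such models by construction. The contrast between these classes was therefore partly set in advance. Genes with 3 to 5 introns, Hsd3b1 among them, gave 4.11% and 5.79%, and those with 6 to 10 gave 7.15% and 4.38%. The rise was thus not steady in replicate 2. Genes of 1 to 2 kb, which include Hsd3b1, had 5.46% in replicate 1 and 5.90% in replicate 2, and genes of 2 to 4 kb 7.13% and 4.43%. The main chain of Hsd3b1 carried another subtype in replicate 1, as described below, and with the subtype Both counted the values were 7.72% and 5.95% for 1 to 2 kb and 7.63% and 4.84% for 2 to 4 kb. With genes classed by their median transcript length, those over 4 kb still had the highest share (12.7% and 10.5%), but those under 1 kb had 7.16% and 4.67%, which in replicate 1 exceeded the 6.42% of genes of 1 to 2 kb. Whether a gene had a member followed its level, because the rule asks for reads. A member was found in 0.798% of detected genes under 10 CPM, 4.18% from 10 to 100 CPM, 19.4% from 100 to 1000 CPM and 80.0% from 1000 CPM, as 76 of 95 genes.

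Gene groups are described here by how many genes held a member. Over all 9942 detected genes, 749 (7.53%) had a member. Among 20 detected genes of steroid synthesis 13 had one, with 47 members, including Fdx1 and Fdxr of mitochondrial electron transfer and the corticotropin receptor partner Mrap. In cholesterol supply 11 of 28 genes had one, among them the synthesis genes Hmgcs1, Fdps and Fdft1 and the lipoprotein receptor Scarb1 with 9 members. Of the genes of fat, 10 of 13 had one, with 56 members, 21 each in Acly and Fasn. Together the 4 fat markers had 7188 CPM in the first library and 7283 in the other. Translation factors had them in 9 of 16 genes and mitochondrial energy genes in 14 of 28. Chromaffin genes of the medulla had them in 8 of 27, including Chga and Chgb, the granins of secretory granules. The leading Chgb member kept 1 intron and had 288 reads (4.45%) and 71 reads (6.03%). The leading Chga member missed 1 intron and had 171 reads (3.21%) and 22 reads (1.69%). Chaperones had 8 of 26, lysosomal genes 6 of 21, matrix genes 4 of 16, splicing factors 4 of 22, imprinted genes 2 of 9 and macrophage genes 1 of 13. None of 10 detected endothelial genes had one. Long cytoskeletal and scaffold genes had a member in 1 of 21, Tln1, although suffix models took 36.7% and 34.9% of the group's reads, with a median of 30 reads per gene in replicate 1. Levels differ between these groups, so the counts do not set any group apart.

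The suffix share of each gene was then compared between the libraries over all its suffix models, in the 2098 genes with at least 50 reads in each. A gene was called at an adjusted p under 0.05 (two-sided Fisher's exact test, Benjamini-Hochberg over the 2098 genes) and shares at least 10 percentage points apart. The test compares these libraries and not conditions, and its p covers counting error only, taking reads as independent molecules. With replicate 1 thinned to the depth of replicate 2 it called 108 genes. It called 170 genes, or 8.1% of those tested. Of these, 165 genes (7.86%) had the higher share in replicate 1 and 5 (0.238%) in replicate 2. The median share was 3.64% in replicate 1 and 1.89% in replicate 2. Of the 475 tested genes with a member, 84 were called, 79 higher in replicate 1 and 5 higher in replicate 2, with medians of 11.1% and 6.84%. Genes with a member have suffix reads by the rule and so can show a difference more readily, and no preference is read from this count. The plot of suffix shares shows most called genes below the line of equal share.

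**Figure D5:**
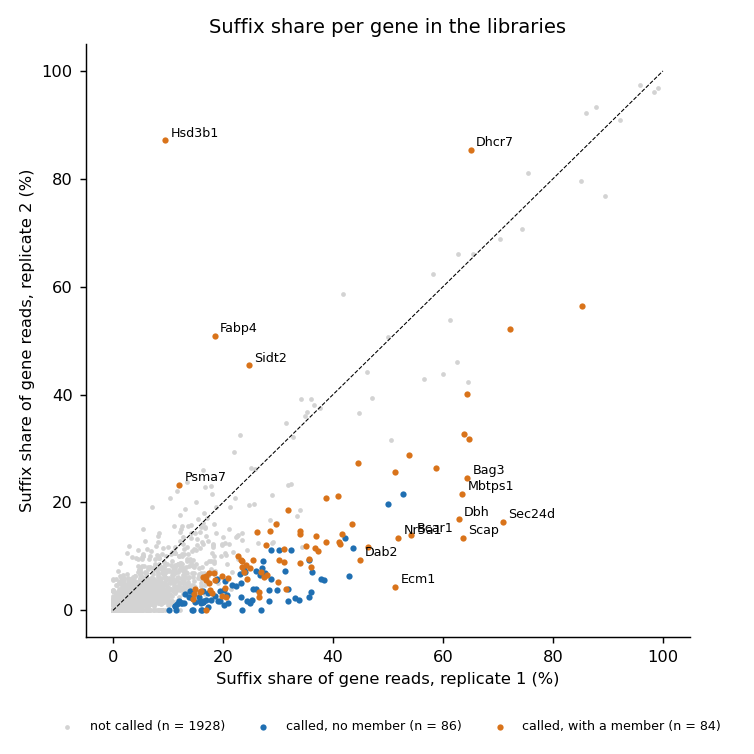
Suffix share of the gene's reads in percent in replicate 1 (horizontal) and replicate 2 (vertical) for the 2098 tested genes, with called genes that have a member in orange (84), called genes without one in blue (86) and the others in grey. Called genes lie mostly below the dashed line of equal share, and Hsd3b1, Dhcr7, Fabp4, Sidt2 and Psma7 lie above it.

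Hsd3b1 had the largest called difference, with 836 of 8772 reads (9.53%) in suffix models in replicate 1 and 3513 of 4031 reads (87.1%) in replicate 2. This difference rested on the class given to 1 model. A chain of 4 exons with 6328 reads, 72.1% of the gene, carried the subtype Both in replicate 1, whereas the same chain with 3177 reads, 78.8% of the gene, carried the subtype Suffix in replicate 2. With both subtypes counted, the share of Hsd3b1 was 81.7% and 87.2%, and the difference of 5.48 points was under the 10 points asked for (adjusted p = 2.98e-13, Fisher's exact test with Benjamini-Hochberg adjustment). This chain was not a member, since the rule asks for Suffix in both libraries. Over all genes, 168 of the 170 called genes were also called with both subtypes counted, among 175 calls.

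The other large differences among called genes with a member had the higher share in replicate 1. Sec24d, a coat protein of vesicles that leave the endoplasmic reticulum, had 68 of 96 reads (70.8%) in suffix models in replicate 1 and 10 of 61 (16.4%) in replicate 2 (adjusted p = 9.88e-10, Fisher's exact test). Scap, the sterol sensor that escorts SREBP, had 89 of 140 (63.6%) and 9 of 67 (13.4%). Mbtps1, the protease that cleaves SREBP in the Golgi, had 54 of 85 (63.5%) and 11 of 51 (21.6%). Both shares were over 40 points lower in replicate 2. Ecm1, a secreted matrix protein, had 302 of 588 (51.4%) and 18 of 410 (4.39%), with an adjusted p of 2.80e-61 by Fisher's exact test. Nr5a1 had 695 of 1340 (51.9%) and 82 of 611 (13.4%), with an adjusted p of 7.10e-61 by the same exact test. The Nr5a1 member beginning at exon 4 held 606 of the 695 and 56 of the 82 reads. Dbh, which makes noradrenaline, had 88 of 140 (62.9%) and 15 of 89 (16.9%). The adaptor protein Bcar1 had 45 of 83 (54.2%) and 11 of 79 (13.9%), the co-chaperone Bag3 had 103 of 160 (64.4%) and 49 of 199 (24.6%), and the endocytic adaptor Dab2 had 35 of 78 (44.9%) and 13 of 139 (9.35%). The 5 medulla markers, Dbh among them, had a higher sum in replicate 1 (11580 against 6677 CPM). In bulk tissue this cannot separate more cells from more RNA per cell. Dbh itself went the other way, with 140 of 1209457 reads in replicate 1 and 89 of 502655 in replicate 2. Whether the amount of medulla had a part in the result for Dbh was not tested.

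The 4 other genes higher in replicate 2 were Fabp4, Sidt2, Dhcr7 and Psma7. Fabp4, a fatty acid carrier of fat cells and endothelium, had 77 of 417 reads (18.5%) in suffix models in replicate 1 and 107 of 210 (51.0%) in replicate 2 (adjusted p = 1.31e-14, Fisher's exact test). A member that kept 1 of 3 introns had 46 of these reads in replicate 1 and 98 in replicate 2. Dhcr7 had 288 of 443 (65.0%) and 369 of 432 (85.4%), with an adjusted p of 1.48e-10 by Fisher's exact test. Sidt2, a lysosomal membrane protein, had 39 of 158 (24.7%) and 60 of 132 (45.5%). Psma7, a proteasome subunit, had 45 of 374 and 30 of 129 reads, a difference of 11.2 points, with an adjusted p of 0.0345 by Fisher's exact test that did not hold under every alternative.

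The called genes of each group are named here, beside 8.1% called over all tested genes, of which 165 of 170 were higher in replicate 1. No group is set apart by these counts. In steroid synthesis 3 of 16 tested genes were called, Nr5a1 and Por, the electron donor of microsomal cytochromes, higher in replicate 1 and Hsd3b1 higher in replicate 2, with medians of 5.18% and 2.44%. Por had a suffix share of 30.2% in replicate 1 and 9.36% in replicate 2. The other abundant genes Cyp11a1, Star, Cyp21a1 and Cyp11b1 were not called, since their shares differed by under 10 points. Cyp11a1 had 5.58% and 4.85%, Star 3.98% and 6.37%, Cyp21a1 4.50% and 1.95%, and Cyp11b1 4.64% and 1.54%. In cholesterol supply 3 of 16 were called, Soat1 and Lipe higher in replicate 1 and Dhcr7 higher in replicate 2, with medians of 6.02% and 4.79%. Of 13 genes of fat 4 were called, Fasn (85.3% and 56.4%), Acly (17.0% and 6.44%) and Lpl (26.6% and 2.43%) higher in replicate 1 and Fabp4 higher in replicate 2, with medians of 9.01% and 5.37%. Eef2 (43.5% and 16.0%), Eef1a1 (31.8% and 18.6%), Eif4a1 and Eif3c were the 4 called of 12 translation factors, with medians of 13.7% and 8.31%, and the lysosomal Lamp1, Hexa, Grn and Gaa the 4 called of 17, with medians of 6.80% and 2.88%. Mitochondrial energy genes had 4 called of 27, Ogdh, Mdh2, Dlst and Pcx, all higher in replicate 1, with medians of 4.04% and 2.43%. Dbh was called among 9 tested medulla genes and Col3a1 among 6 matrix genes. Meg3 was called among 5 imprinted genes and Eng among 2 endothelial genes, and each of these was higher in replicate 1. No gene was called among 26 chaperones (medians 2.54% and 2.15%) or 15 splicing factors (medians 4.64% and 2.38%). These medians stand beside 3.64% and 1.89% over all tested genes.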

How the data were processed

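Per the labels, the data are long-read RNA sequencing of adrenal gland in 2 libraries of 1 group, with the ENCODE long-read analysis protocol, version 3.0. The authors deposited, per library, whole-number read counts per transcript model, not normalised, and the models with their classes, lengths and coordinates. Per the deposited readme files these derive from filtered alignments to mm10 with GENCODE M21. The sources used here do not give the aligner, the platform or the version of TALON, which the deposited models name as their source. The members and gene lists were chosen with earlier results of these data known.

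Here, models were matched by chromosome, strand and introns, and counts of models with the same introns in 1 library were summed. CPM used 1209457 and 502655 reads of annotated nuclear genes, leaving out spike-ins, mitochondrial genes and new genes. A gene was detected with 3 reads in each library. Missing introns, starts and start codons were read against M21 transcripts, taking the holding transcript that lacks the fewest introns. Suffix shares were compared per gene with Fisher's exact test (scipy 1.17.1) and Benjamini-Hochberg adjustment, tested on simulated data, in Python 3.11.15. No count model was fitted, since there is 1 group. edgeR 4.0.16 and DESeq2 1.42.0 gave scaling factors only.

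Named were the 15 members with the highest mean CPM, the 10 with the highest mean share in genes of 50 or more reads in each library, the 10 with the most missing introns, the 2 most abundant of each gene list and the 10 genes with a member and the largest called differences. Some items that this rule names are not reported here. All 5 genes higher in replicate 2, the genes with the most members and the called list genes were named after their values were seen, as were the second set of sequences. No genome was used here, so members starting outside annotated exons are given without sequence, and GC windows were read at RefSeq starts only. The alternatives were other read minimums, subtypes, holding transcripts, windows, depths and scalings.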

Additional observations from a re-analysis of the deposited data

How the results depend on the processing

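The number of shared members depended on the read minimum, with 6184 at 1 read, 623 at 5 and 239 at 10, and ranged from 1460 to 6133 when 1 library alone was asked for. It was 993 when starts had to lie within 50 bases, 1220 with the subtype Both included, 912 with replicate 1 thinned to the depth of replicate 2 in 1 seeded draw, and 1191 when both libraries had to assign the same gene. The count of called genes was 86 of 922 with at least 100 reads per library, 259 with the adjusted p alone and 108 with replicate 1 thinned, and lay within 1.5 times of 170 under the other alternatives. Hsd3b1 was not called with both subtypes counted (5.48 points), and Psma7 was not with 20 reads per library (11.2 points, adjusted p = 0.0584, Fisher's exact test) or with thinning (11.6 points, adjusted p = 0.102, Fisher's exact test); the cause was not tested. The median of missing introns was 3 with the holding transcript that lacks the most. Starts near an annotated start were 38.0% within 500 bases, and starts matched between libraries for 78.7% within 10 bases and 87.9% within 200. With genes classed by median transcript length, the suffix share under 1 kb was 5.91% against 2.27% as the mean of the libraries, and 6.37% against 5.68% at 1 to 2 kb. Both subtypes counted gave 6.83% at 1 to 2 kb. The share of coding members lacking the start codon was 72.6%, 73.2% by the starts in replicate 2, 74.7% by the first kept intron and 74.7% with the most-read coding transcript. Other scalings of CPM moved the median level of the named members from 92.6 to between 88.1 and 92.4 CPM, each level being the mean of the libraries. No paired analysis was possible because the libraries form 1 group. The alternatives on both subtypes per gene and length class, the start codon by chain and the same gene were chosen after seeing the data. At 502655 reads, replicate 2 limits which models could be shared.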
